A study of Homo sapiens with 15 samples.

Results

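Expression of 10 genes of the Nodal signalling pathway was followed through the conversion of human embryonic stem cells to definitive endoderm, the germ layer that forms the gut and its organs. The genes were chosen by their place in the pathway: the ligands NODAL and GDF3, the coreceptor TDGF1 (also called Cripto), the type II receptor ACVR2B, the intracellular transducers SMAD2 and SMAD3, the DNA-binding partner FOXH1, and the secreted inhibitors LEFTY1, LEFTY2 and CER1. All 10 were among the 23346 gene symbols counted and all 10 passed the filter on low counts, which kept 17401 genes. The 15 libraries were bulk polyA RNA-seq of H9, an established human embryonic stem cell line, with 3 libraries for each day from day 0 to day 4, numbered 1, 2 and 4 in the labels. Day 0 cells were undifferentiated and kept in E8 medium. On the first day of differentiation, cells received activin A with CHIR99021 in Advanced RPMI 1640, and on later days activin A without CHIR99021. Activin A is a protein ligand related to Nodal, and CHIR99021 inhibits the kinase GSK3 and so activates Wnt signalling. Day 0 thus differed from every other day in base medium as well as in the added factors, and these cannot be told apart.

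Nodal is a secreted ligand of the TGF-beta family. It binds type I and type II activin receptors together with a coreceptor of the Cripto family, and the activated receptors phosphorylate SMAD2 and SMAD3, which enter the nucleus with SMAD4 and act with partners such as FOXH1. In the embryo, Nodal signalling induces mesoderm and endoderm and switches on its own ligand as well as its inhibitors: the Lefty proteins block Nodal at its receptors and coreceptor, and Cerberus, encoded by CER1, binds the ligand outside the cell. Activin A uses the same receptors but does not need the coreceptor.

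Library totals ran from 54723184 to 145857940 counts, so that 3 counts corresponded to 0.0206 to 0.0548 CPM, a count scaled to a common library size. All levels are CPM over TMM-scaled library sizes unless stated otherwise. No label ties the 3 libraries of a day to 3 separate cultures, so that p-values measure only how far these libraries spread, which may be technical. The summed level of 6 pluripotency markers was 2153 to 3783 on day 0 and 205 to 372 on day 4. The sum of 6 definitive endoderm markers was 15.3 to 22.1 on day 0 and 689 to 2128 on day 4, with all 6 over 1 CPM in every library of that day. Replicate 1 of days 3 and 4 stood apart from the other libraries of those days: its 5 primitive streak markers summed to 81.7 and 90.1 against 645 to 732, and its endoderm markers to 779 and 689 against 1349 to 2128. The endoderm markers did not all go this way. On day 3 GATA6 was at 143 CPM in replicate 1 against 672 and 787, and CXCR4 was also lowest there. FOXA2 was highest in replicate 1 on that day, and SOX17 was at 121 CPM against 103 and 224. On day 4 GATA6, CXCR4 and SOX17 were lowest in replicate 1. FOXA2 was then at 171 CPM in replicate 1 against 210 and 89.6, lowest in replicate 4. These are bulk samples, in which fewer cells expressing a gene and less of its RNA per cell cannot be told apart. Levels across days were compared with edgeR's quasi-likelihood test with Benjamini-Hochberg adjustment over all 17401 genes, and a gene was called at an adjusted p under 0.05.

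Across the 5 days jointly, 7 of the 10 genes were called, against 37.3% of all genes tested. They were NODAL, GDF3, SMAD2, SMAD3, LEFTY1, LEFTY2 and CER1, with joint adjusted p from 2.44e-05 for CER1 to 0.00954 for LEFTY1. The coreceptor TDGF1 (adjusted p 0.181), the receptor ACVR2B (0.135) and FOXH1 (0.0585) were not called. The day of the highest mean was day 1 for NODAL, day 2 for CER1, day 3 for SMAD3 and day 4 for both LEFTY genes. In NODAL the libraries of that day were separate from those of the next in order, while in CER1, SMAD3 and the LEFTY genes they overlapped, and no test between time courses was made.

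**Figure D1:**
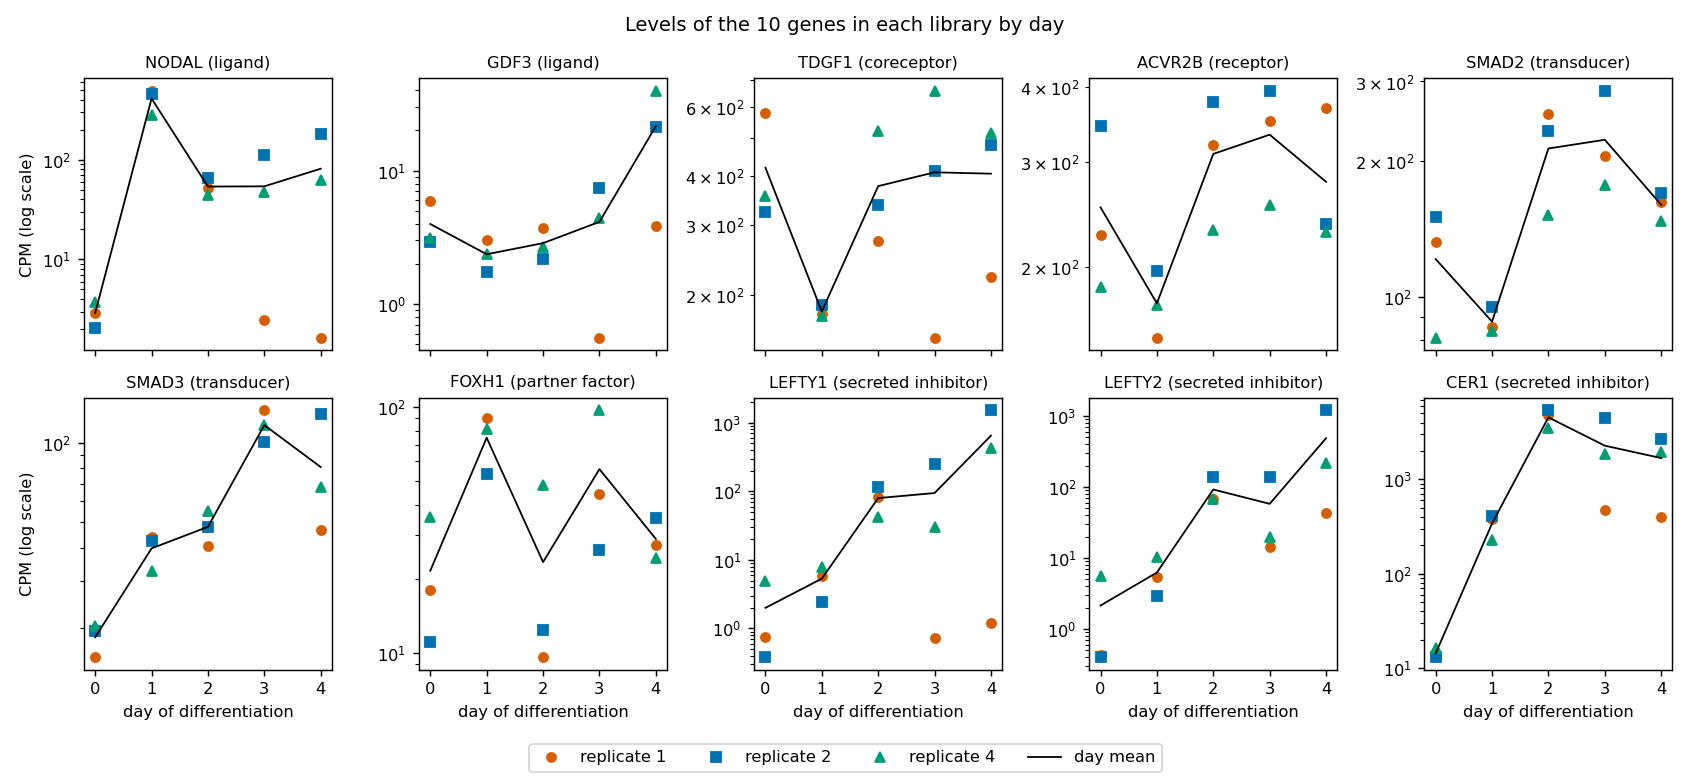
Level of each of the 10 genes in CPM (log scale) against day of differentiation, with a symbol for each library and a line through the day means. NODAL peaks on day 1 at 282 to 492 CPM and CER1 on day 2 at 3458 to 5388 CPM, while the symbol of replicate 1 lies far below the others on days 3 and 4 for NODAL, LEFTY1 and CER1.

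The promoters of 3 genes that were all called higher on day 4 than on day 0 are shown, because FOXH1 and the SMAD proteins act on DNA and their binding motifs could be searched there. SMAD3 was called higher too and has 5 promoters in the table used, which are not shown, and LEFTY1 and LEFTY2 have no entry. The 250 bases before the annotated start were read from the RefSeq promoter table of build GRCh38.p14 and all 3 lie on the minus strand: NODAL at chr10:70441682-70441931, GDF3 at chr12:7695776-7696025 and CER1 at chr9:14722734-14722983. The motifs searched on both strands were the FOXH1 core AATNCACA, where N is any base, and the SMAD element CAGAC, and capitals mark the matches.
NODAL: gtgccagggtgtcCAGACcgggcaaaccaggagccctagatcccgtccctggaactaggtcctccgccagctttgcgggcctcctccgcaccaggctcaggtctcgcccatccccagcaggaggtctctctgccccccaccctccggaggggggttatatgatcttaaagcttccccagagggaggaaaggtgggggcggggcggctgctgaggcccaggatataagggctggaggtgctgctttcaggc
GDF3: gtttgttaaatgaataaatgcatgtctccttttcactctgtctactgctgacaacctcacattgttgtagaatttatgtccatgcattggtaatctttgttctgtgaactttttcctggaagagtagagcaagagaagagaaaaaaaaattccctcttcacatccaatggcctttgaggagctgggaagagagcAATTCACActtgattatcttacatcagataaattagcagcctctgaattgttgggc
CER1: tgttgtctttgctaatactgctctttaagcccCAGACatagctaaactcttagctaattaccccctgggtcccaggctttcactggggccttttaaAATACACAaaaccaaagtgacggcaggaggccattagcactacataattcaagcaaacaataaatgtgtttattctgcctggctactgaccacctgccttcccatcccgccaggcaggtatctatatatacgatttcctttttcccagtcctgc
NODAL had the SMAD element at 237 to 233 bases before the start and no match to the FOXH1 core. GDF3 had the FOXH1 core at 56 to 49 bases before the start and no SMAD element. CER1 had both, the FOXH1 core at 154 to 147 and the SMAD element at 218 to 214 bases before the start. Of 35116 promoters of this length in the table, 2.89% held the FOXH1 core and 38.0% the SMAD element. A match is a stretch of letters in this window and not evidence of binding, and the table has an entry for 6 of the 10 genes.

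NODAL, the ligand that gives the pathway its name, rose from day 0 to day 1, with a log2 difference of 7.15 (SE 1.38, adjusted p 0.00286). It stood at 2.89, 2.05 and 3.77 CPM in replicates 1, 2 and 4 of day 0, and at 492, 461 and 282 CPM on day 1. The groups were far apart, and every library of day 1 was also above every library of any other day. With CER1 and SMAD3, NODAL was among 3 of the 10 genes called higher on day 1 than on day 0, against 5.49% of all genes tested. None of the 10 was called lower in this step by edgeR, against 4.88% of all genes, with 1 at an unadjusted p under 0.05 and 0 by DESeq2. NODAL, SMAD3, FOXH1 and CER1 were above day 0 in every library (15.8% of all genes) and TDGF1 was below it in every library (14.1%).

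On day 2 NODAL was at 51.6, 65.2 and 44.7 CPM, below all libraries of day 1 and above all of day 0. The log2 difference from day 1 was -2.93 (SE 1.13) and was not called (adjusted p 0.131). Fitted without replicate 1 of days 3 and 4, the difference was -2.87 with an adjusted p of 7.16e-04. Those libraries stood apart in NODAL itself, and without them its SE was 0.44 at nearly the same difference. Calls gained in that fit come with a narrower spread and are not separate support, here and for the genes below. On day 3 NODAL was at 2.49, 113 and 47.1 CPM and on day 4 at 1.63, 180 and 62.3 CPM. Replicate 1 was thus at the level of day 0 on both days, while replicates 2 and 4 were at or above the levels of day 2. Day 4 against day 0 gave a log2 difference of 4.81 (SE 1.24, adjusted p 0.00788), although the libraries overlapped because replicate 1 of day 4 lay below all 3 of day 0. Without that library the difference was 5.44, and without replicate 2 of day 4 it was 3.55, called in both cases. The 3 genes whose profile over the 15 libraries was most like that of NODAL, by Pearson correlation of log2(CPM + 1) among 10911 genes, were FAM167A (r = 0.956), MIXL1 (0.933) and PMEPA1 (0.915). The correlations are descriptions over libraries that share day and depth.

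GDF3, a TGF-beta family ligand of pluripotent cells that acts with Nodal, was a low-level gene until the last day. It was at 5.92, 2.92 and 3.10 CPM on day 0, at 1.73 to 3.00 CPM on day 1 and at 2.18 to 3.74 CPM on day 2. On day 3 it was at 0.557, 7.39 and 4.44 CPM, and on day 4 at 3.83, 21.1 and 39.7 CPM. Replicates 2 and 4 of day 4 were above every other library, while replicate 1 of day 4 lay within the range of day 0. The difference between day 4 and day 0 was 2.44 on the log2 scale (SE 0.79, adjusted p 0.0257) and was called. The call was lost without replicate 2 of day 0 (adjusted p 0.0861), replicate 4 of day 0 (0.0622) or replicate 4 of day 4 (log2 difference 1.69, adjusted p 0.131).

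TDGF1, the coreceptor that presents Nodal to its receptors and a marker of undifferentiated stem cells, was detected at over 150 CPM in every library and was not called in any comparison by edgeR with all 15 libraries and no block. It was at 579, 325 and 356 CPM on day 0 and at 179, 188 and 177 CPM on day 1, where all 3 libraries lay below day 0. The log2 difference was -1.21 (SE 0.45, adjusted p 0.104). Fitted without replicate 1 of days 3 and 4 it was -1.23 and was called (SE 0.32, adjusted p 0.0200), with the limit given for NODAL. On day 2 it was at 273, 339 and 519 CPM, above all of day 1, with a log2 difference of 1.05 that was not called (adjusted p 0.172), and of 1.11 with an adjusted p of 0.0389 without replicate 1 of days 3 and 4. Day 3 libraries were at 156, 413 and 658 CPM and day 4 libraries at 222, 481 and 514 CPM, overlapping day 0 on both days. Replicate 1 was again the lowest on days 3 and 4, by 4.22-fold and 2.31-fold against the highest library.

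Reads of TDGF1 may be shared with TDGF1P3, a near-identical copy: their GENCODE release 29 transcripts were 97.9% identical over 2487 aligned positions, with an identical run of 257 bases. The treatment of such reads in counting is unknown, which makes the split between them uncertain. TDGF1P3 was at 12.3, 38.5 and 73.0 CPM on day 3 in replicates 1, 2 and 4, the same order as TDGF1, and it was the gene most like TDGF1 over the 15 libraries (r = 0.891).

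ACVR2B, a type II receptor for activin and Nodal, was called in none of the comparisons by edgeR with all 15 libraries and no block. It was at 226, 344 and 185 CPM on day 0, 152, 196 and 172 CPM on day 1, and 320, 378 and 230 CPM on day 2. Day 2 libraries were all above day 1 libraries, with a log2 difference of 0.83 that was not called (adjusted p 0.113). That step was called in a fit of only the days compared (adjusted p 0.0419) and with the replicate number as a block (log2 difference 0.797, adjusted p 0.0472). Day 3 at 351, 395 and 254 CPM and day 4 at 369, 236 and 228 CPM overlapped day 2, and replicate 1 was the highest library on day 4.

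SMAD2, a receptor-activated transducer, was called in 1 of the 5 pairwise comparisons, from day 1 to day 2. It was at 85.6, 94.8 and 83.8 CPM on day 1 and at 254, 233 and 151 CPM on day 2, with no overlap (log2 difference 1.27, SE 0.29, adjusted p 0.0127). Leaving out replicate 1 or replicate 4 of day 1 gave 0.0592 and 0.0503. Day 0 had been at 132, 150.1 and 81.0 CPM and overlapped day 1. Day 3 was at 205, 286 and 177 CPM and day 4 at 162, 170.2 and 147 CPM, all of day 4 being below day 3, and the difference from day 0 to day 4 was 0.40 on the log2 scale (adjusted p 0.298). SMAD2 and ACVR2B followed each other over the 15 libraries (r = 0.875), a description only.

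SMAD3, the second receptor-activated transducer, rose from day 0 to day 1 and was higher at the end. It was at 15.4, 19.4 and 20.3 CPM on day 0 and at 44.2, 42.6 and 32.9 CPM on day 1, without overlap (log2 difference 1.12, SE 0.33, adjusted p 0.0393). That call was lost when any of 7 libraries of days 0 to 2 was left out, with adjusted p from 0.0511 to 0.139: replicates 1 and 2 of day 0, each library of day 1, and replicates 1 and 2 of day 2. Levels were 40.6, 48.2 and 55.4 CPM on day 2 and 132, 100.3 and 117 CPM on day 3, again with no overlap. The step to day 3 had a log2 difference of 1.28 (SE 0.33) with an adjusted p of 0.0755. With the replicate number as a block, it was 1.30 with an adjusted p of 0.0330 and was called, and DESeq2 called it too (adjusted p 0.00704). On day 4 SMAD3 was at 46.6, 128 and 67.8 CPM, all above day 0, with a log2 difference from day 0 of 2.14 (SE 0.34, adjusted p 2.40e-04).

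FOXH1, the forkhead factor that brings SMAD2 and SMAD3 to DNA, was not called in any comparison by edgeR with all 15 libraries and no block. It was at 18.0, 11.1 and 35.5 CPM on day 0 and at 89.8, 53.3 and 81.4 CPM on day 1, higher in every library (log2 difference 1.80, SE 0.60, adjusted p 0.0711). It was at 9.56, 12.4 and 48.1 CPM on day 2, lower than day 1 in every library (log2 difference -1.68, SE 0.60, adjusted p 0.103). DESeq2 called both steps, with adjusted p 0.0227 and 0.0435. In edgeR, leaving out replicate 4 of day 2 gave calls in both steps (adjusted p 0.0257, and 0.00994 with a log2 difference of -2.77), and leaving out replicate 4 of day 0 gave a call in the first (0.0316, log2 difference 2.39). Day 3 at 44.4, 26.2 and 96.8 CPM and day 4 at 27.5, 35.3 and 24.2 CPM overlapped each other. Replicate 4 was the highest FOXH1 library on days 0, 2 and 3.

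LEFTY1, an inhibitor that Nodal signalling induces, was low at the start and had the widest spread of the 10 genes at the end. It was at 0.757, 0.377 and 4.85 CPM on day 0 and at 5.74, 2.41 and 7.80 CPM on day 1, with overlap. On day 2 it was at 82.9, 115 and 41.8 CPM, above every library of day 1 (log2 difference 3.90, SE 1.73, adjusted p 0.192). Fitted without replicate 1 of days 3 and 4, this step gave 3.96 (SE 0.95) with an adjusted p of 0.0161, with the limit given for NODAL. On day 3 LEFTY1 was at 0.720, 253 and 29.8 CPM and on day 4 at 1.20, 1522 and 425 CPM. Replicate 1 was at the level of day 0 on both days, so that the highest library was 351 times the lowest on day 3 and 1271 times on day 4. Day 4 against day 0 gave a log2 difference of 8.34 (SE 2.12, adjusted p 0.00717). The value was 8.97 without replicate 1 of day 4, 6.81 without replicate 2 of day 4 and 10.23 without replicate 4 of day 0, called each time.

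LEFTY2, the neighbouring paralogue with the same role, was at 0.426, 0.397 and 5.59 CPM on day 0 and at 5.41, 2.94 and 10.4 CPM on day 1. On day 2 it was at 68.6, 140.2 and 67.5 CPM, above all of day 1 (log2 difference 3.88, SE 1.25, adjusted p 0.0687). DESeq2 called that step (adjusted p 0.0178), as did the fit without replicate 1 of days 3 and 4 (0.0262), the latter with the limit given for NODAL. On day 3 LEFTY2 was at 14.3, 139.8 and 19.4 CPM and on day 4 at 42.4, 1201 and 215 CPM. Unlike LEFTY1, it stayed above every library of day 0 in replicate 1 of both days. The difference between day 4 and day 0 was 7.82 on the log2 scale (SE 1.50, adjusted p 0.00107), 5.97 without replicate 2 of day 4 and 10.26 without replicate 4 of day 0.

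The LEFTY1 and LEFTY2 transcripts were 96.4% identical over 1203 aligned positions with an identical run of 300 bases, so that counts could be exchanged between them. Summed as a single feature, they differed by 3.89 on the log2 scale between day 2 and day 1 (SE 1.35, adjusted p 0.0925) and by 8.10 between day 4 and day 0 (SE 1.64, adjusted p 0.00163). The balance of the pair was different in replicate 1 of days 3 and 4. LEFTY1 made up 38.2% to 66.4% of the pair in the other 13 libraries. In replicate 1 it made up 4.79% on day 3 (exact 95% binomial interval 3.61% to 6.22%) and 2.75% on day 4 (2.11% to 3.52%). The intervals cover counting error only and were taken on counts divided by 2, since every deposited count was even.

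**Figure D2:**
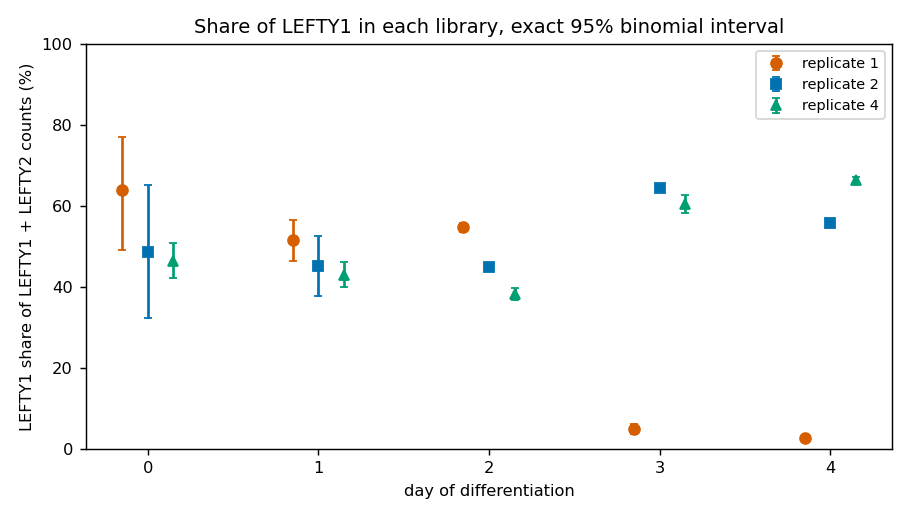
Share of LEFTY1 in the sum of LEFTY1 and LEFTY2 counts, in percent, for each library by day, with exact 95% binomial intervals for counting error. Replicate 1 of days 3 and 4 lies at 4.79% and 2.75%, and the other libraries lie between 38.2% and 66.4%.

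CER1, which encodes the secreted antagonist Cerberus, rose in both of the first steps. It was at 13.3, 12.9 and 16.4 CPM on day 0, at 382, 409 and 226 CPM on day 1 and at 4767, 5388 and 3458 CPM on day 2. The 3 days did not overlap. The first step was 4.58 on the log2 scale (SE 0.74, adjusted p 6.88e-04) and the second 3.74 (SE 0.71, adjusted p 0.00377). On day 3 CER1 was at 478, 4478 and 1867 CPM and on day 4 at 397, 2683 and 1958 CPM. Replicate 1 was near the level of day 1 on both days and the other libraries stayed between 1867 and 4478 CPM. The step to day 3 was -0.997 on the log2 scale and was not called (adjusted p 0.515), and day 4 was above day 0 by 6.88 (SE 0.82, adjusted p 2.14e-05) without overlap. The genes most like CER1 over the 15 libraries were LHX1 (r = 0.977), ST8SIA4 (0.968) and MAGI3 (0.966). For the LEFTY genes the closest were KLHL6 for LEFTY1 (0.932) and SLC9A5 for LEFTY2 (0.952).

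Scaled per kilobase of the longest coding GENCODE transcript, so that genes could be set side by side, mean levels on day 1 were 279 CPM per kb for CER1, 247 for NODAL and 72.3 for TDGF1. On day 2 CER1 was at 3734 CPM per kb, against 49.0 for LEFTY1, 40.3 for LEFTY2 and 32.3 for NODAL. On day 4 the means were 1382 CPM per kb for CER1, 399 for LEFTY1, 213 for LEFTY2, 161 for TDGF1 and 48.8 for NODAL, but the order differed between libraries. TDGF1 was below LEFTY2 in replicate 2 (191 against 525 CPM per kb) and above it in replicates 1 (88.3 against 18.5) and 4 (205 against 94.1). LEFTY1 was at 0.737 CPM per kb in replicate 1, the lowest of the 5 genes there.

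From day 1 to day 2, 2 of the 10 genes were called higher, CER1 and SMAD2, against 4.93% of all genes, and 0 lower by edgeR, against 3.34% (2 at an unadjusted p under 0.05, and 1, FOXH1, by DESeq2). In that step 6 genes were above day 1 in every library (17.2% of all genes) and NODAL and FOXH1 were below it in every library (18.5%). From day 2 to day 3 edgeR called 0 of the 10 in either direction, against 0.661% of all genes higher and 0.287% lower. At an unadjusted p under 0.05, 1 was higher and 0 lower, and DESeq2 called 1 higher, SMAD3, and 0 lower. SMAD3 alone was above day 2 in every library (9.10% of all genes) and none was below (8.75%). From day 3 to day 4 edgeR called 0 of the 10 and 0 of all genes in either direction (0% in the background), with 2 of the 10 higher and 0 lower at an unadjusted p under 0.05 and 0 called by DESeq2. Over all genes there were 504 higher and 570 lower at that unadjusted p, and DESeq2 called 27 higher and 39 lower. The log2 differences for this step were 2.78 for LEFTY1, 3.07 for LEFTY2 and 2.39 for GDF3, with adjusted p from 0.625 to 0.863. Without replicate 2 of day 4 they were 1.24 for LEFTY1 and 1.21 for LEFTY2, and without replicate 2 of day 3 they were 5.42 and 4.86. GDF3 was at 1.60 without replicate 4 of day 4 and at 3.13 without replicate 2 of day 3. Not one of these was called. None of the 10 was above day 3 in every library (4.95% of all genes), and SMAD2 was below it in every library (4.32%). From day 0 to day 4, 6 of the 10 were called higher, against 18.0% of all genes, and 0 lower by edgeR or DESeq2 or at an unadjusted p under 0.05, against 16.2%. Only SMAD3, LEFTY2 and CER1 of the 10 were above day 0 in every library (21.1% of all genes), and none was below (19.5%). These comparisons share libraries of the same days, and their values stand side by side without a test between them.

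**Figure D3:**
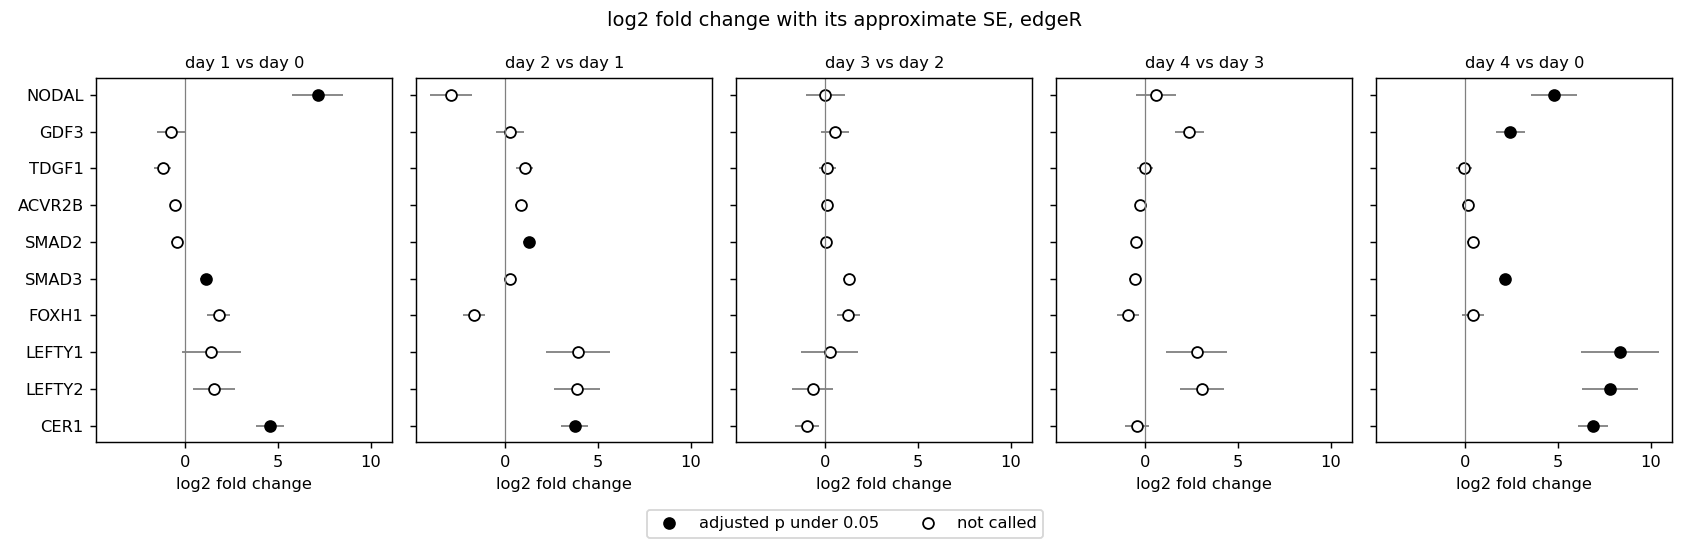
log2 fold change of each of the 10 genes, later day over earlier day, with its approximate SE, in the 5 comparisons. Filled points have an adjusted p under 0.05: 3 genes for day 1 vs day 0, 2 for day 2 vs day 1, 0 for the next steps and 6 for day 4 vs day 0.

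How the ligands and inhibitors varied among the libraries of days 3 and 4 can be read library by library. NODAL, LEFTY1, LEFTY2 and CER1 had the same order on both days, replicate 2 highest, then replicate 4, then replicate 1, an order held on both days by 3.73% of all genes tested. GDF3 had that order on day 3 and had replicate 4 highest on day 4, and TDGF1 had replicate 4 highest on both. The sum of the 6 pluripotency markers was also highest in replicate 4, at 290, 293 and 503 CPM on day 3 and 279, 205 and 372 CPM on day 4. This is an order of the sum and not of each marker. POU5F1 alone was at 199 and 119 CPM in replicate 4 of days 3 and 4, a large share of it. The part of these markers in the values of the 10 genes was not tested. Replicate 1 was the lowest library for all 5 ligand and inhibitor genes on both days, against 19.8% of all genes. On day 3 the highest library was 45.3 times the lowest for NODAL, 13.3 times for GDF3, 9.76 times for LEFTY2 and 9.37 times for CER1. The spread on day 4 was 110-fold for NODAL, 10.4-fold for GDF3, 28.3-fold for LEFTY2 and 6.75-fold for CER1.

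Of the 10 genes, 6 spanned at least 4-fold on day 3, against 21.3% of all genes, and 5 on day 4, against 18.3%. On days 0, 1 and 2 these counts were 2, 0 and 1, against 19.9%, 8.79% and 14.2%. SMAD3 had the same order as NODAL on day 4, but had replicate 1 highest on day 3. Replicate 1 was the highest library for ACVR2B on day 4, and SMAD2 was lowest in replicate 4 on both days. With 3 libraries a day, no test of these orders was made. The 3 libraries numbered 1, 2 and 4 deviated together between days 3 and 4 over all genes, so that both days are not independent views of the order.

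**Figure D4:**
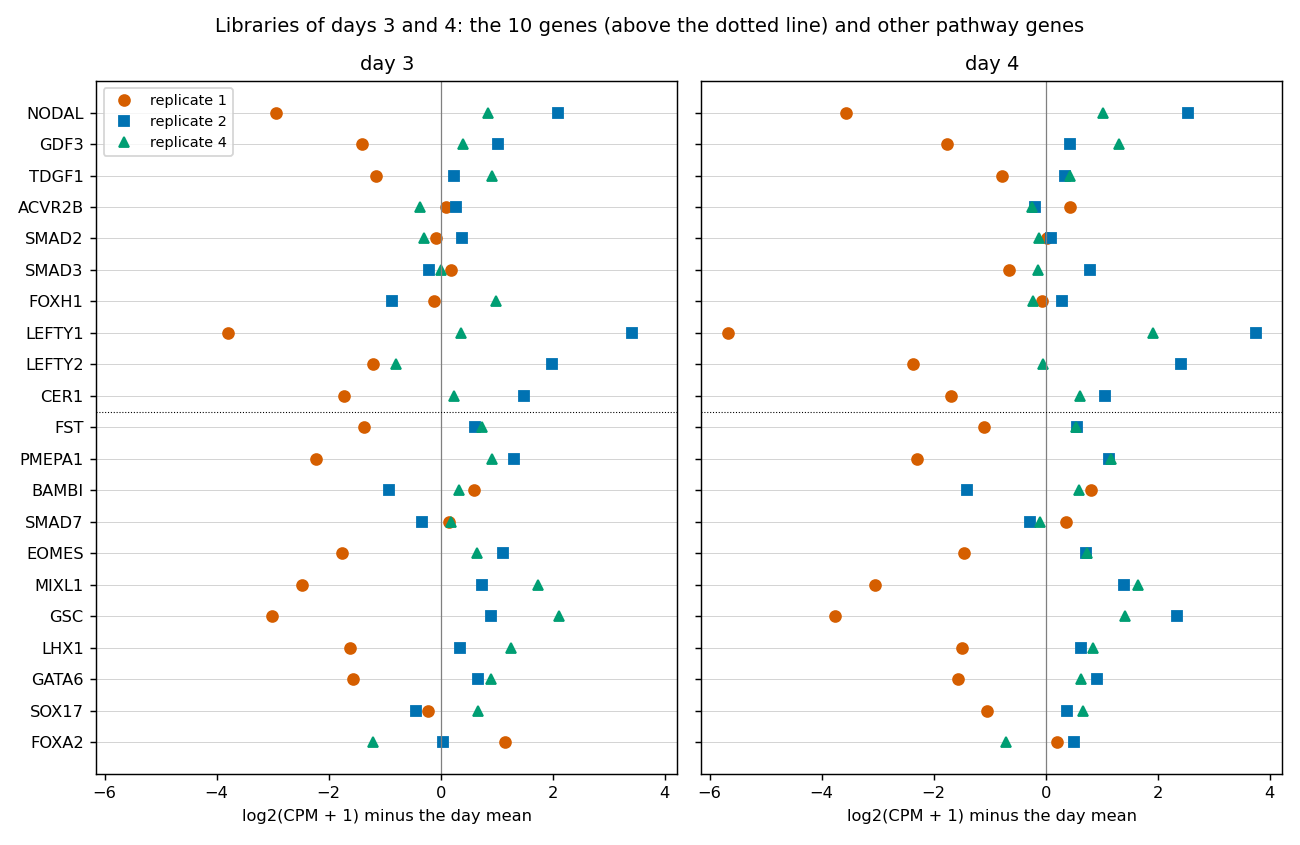
Deviation of each library from the mean of its day, on the log2(CPM + 1) scale, on days 3 and 4, with the 10 genes above the dotted line and other inhibitors and targets of the pathway below it. Replicate 1 lies lowest for NODAL, GDF3, TDGF1, LEFTY1, LEFTY2 and CER1 on both days, with NODAL at -2.94 on day 3 and -3.56 on day 4.

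Marker levels also differed among these libraries, and their part in the result was not tested. The 4 neural ectoderm markers summed to 310, 787 and 454 CPM on day 3 and to 197, 830 and 472 CPM on day 4, the same order as NODAL and the inhibitors, with SOX1 at 0 on day 4. Only 2 of the 4 were over 1 CPM in every library of either day, so that the sum does not speak for the set. The 6 mesoderm markers summed to 559, 111 and 529 CPM on day 3 in replicates 1, 2 and 4 and to 301, 86.0 and 227 CPM on day 4, lowest in replicate 2. The 4 trophoblast markers summed to 67.3, 16.1 and 51.0 CPM on day 3 and to 105, 24.3 and 37.9 CPM on day 4, highest in replicate 1, but only 1 of the 4 was over 1 CPM in every library of either day. The 4 extraembryonic endoderm markers summed to 5.27 to 16.3 CPM on day 3 and to 59.5 to 98.7 CPM on day 4, with TTR at 0 in all 15 libraries. Here too only 1 of the 4 was over 1 CPM in every library of either day. AFP was at 0.04 to 0.18 CPM on day 4, so that this sum does not speak for the set. Among single endoderm genes, GATA6 was at 143, 672 and 787 CPM on day 3, lowest in replicate 1. FOXA2, in contrast, was at 252, 116 and 48.2 CPM on that day, highest in replicate 1, and at 171, 210 and 89.6 CPM on day 4, lowest in replicate 4.

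Other genes of the pathway were taken as a list of 55 by role, of which 52 were tested. From day 0 to day 1, 14 of the 52 were called higher (5.49% of all genes) and 4 lower (4.88%), with a median log2 difference of 0.24 against -0.02 over all genes tested, while the median of the 10 was 1.26. For day 4 against day 0, 22 were higher (18.0% of all genes) and 2 lower (16.2%), with a median of 1.00 against -0.02, and the median of the 10 was 2.29. The counts were 5 higher (4.93% of all genes) and 2 lower (3.34%) from day 1 to day 2, which for the lower genes is near the background. They were 1 higher (0.661%) and 0 lower (0.287%) from day 2 to day 3 by edgeR, where 2 were lower at an unadjusted p under 0.05 and 0 by DESeq2. From day 3 to day 4 edgeR and DESeq2 called 0 of the 52, with 0 at an unadjusted p under 0.05.

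Among other ligands, TGFB1, a TGF-beta, rose by 3.34 on the log2 scale from day 0 to day 1 (adjusted p 1.46e-05). INHBA, which encodes the subunit of activin A, fell in the same step (adjusted p 0.00509), from 1.18 to 1.59 CPM on day 0 to at most 0.0294 CPM on day 1, a level below 3 counts. GDF1, a ligand that pairs with Nodal, had no count in any library. Among the proprotein convertases that can cut Nodal precursors, PCSK6 rose by 2.55 from day 0 to day 1, PCSK5 fell by 1.57, and FURIN was 3.26 higher on day 4 than on day 0. The Cripto paralogue CFC1B had no count in any library, and CFC1 had counts only in replicates 1 and 2 of day 2, at 0.147 and 0.0251 CPM. The treatment of reads shared between copies is unknown, so that these values do not show that the RNA was absent. Among the type I receptor genes, ACVR1B was higher by 1.43 on day 4 than on day 0, and ACVR1C fell by 1.65 from day 1 to day 2. Of the 8 other transducers and partners, GTF2I was the only one called by edgeR, lower by -0.75 for day 4 against day 0.

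Of the 18 other inhibitors, 5 were called higher (5.49% of all genes) and 0 lower (4.88%) from day 0 to day 1, with 1 lower at an unadjusted p under 0.05 and 0 by DESeq2. The activin-binding protein gene FST rose by 4.68, the decoy receptor gene BAMBI by 2.96 and the SMAD-binding PMEPA1 by 2.76 in that step. PMEPA1 was at 10.5, 133 and 100.2 CPM on day 3 and at 8.68, 103 and 106 CPM on day 4, lowest in replicate 1 as the ligands were. FST showed the same with 116, 459 and 502 CPM on day 3 and 204, 645 and 638 CPM on day 4. BAMBI went the other way, with 207, 72.2 and 172 CPM on day 3 and 212, 45.2 and 183 CPM on day 4, highest in replicate 1. Replicate 1 was the lowest library for 5 of the 18 on day 3 and 8 on day 4, against 27.8% and 39.5% of all genes.

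Of the 10 genes listed as targets of the pathway, 7 were called higher (5.49% of all genes) and 1 lower (4.88%) from day 0 to day 1, among them T at 9.82, MIXL1 at 9.02 and GSC at 7.42 on the log2 scale. From day 1 to day 2 SOX17 was higher by 6.96 and LHX1 by 3.66, while T fell by 6.18. Replicate 1 was the lowest library for 7 of the 10 targets on day 3 (27.8% of all genes) and 8 on day 4 (39.5%). EOMES was at 60.3, 452 and 326 CPM on day 3, MIXL1 at 5.24, 136 and 163 CPM on day 4, and GSC at 1.90, 201 and 105 CPM on day 4, each lowest in replicate 1 as NODAL was. The targets not lowest in replicate 1 were FOXA2, T and SOX17 on day 3, and FOXA2 and T on day 4.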

How the data were processed

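RNA was measured in 15 H9 libraries, grouped by the day given in the sample titles. TopHat2 2.0.14 and hg19 are named by the submitters' processing notes. Counter, annotation and strand use were not given in the sources used here, and overlapping or antisense genes are therefore uncertain. The authors deposited raw counts per gene symbol, all even, without normalization. Of 23398 entries 52 repeated a symbol: 44 identical ones were dropped and 8 were summed. The main test was edgeR 4.0.16 (limma 3.58.1, R 4.3.3), quasi-likelihood, with TMM scaling, filterByExpr and all days in a single fit, where 17401 genes were tested and the biological coefficient of variation was 45.6%. DESeq2 1.42.0 and 23 other settings were tried. The fit was tested on simulated data. Total counts were 54723184 to 145857940 a library.

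Same-numbered libraries deviated together in 2 steps (r = 0.272, 0.385 and 0.619 for day 3 vs day 2, and 0.625, 0.221 and 0.524 for day 4 vs day 3), which is read from the data and not from the labels. The main test took no pairs in any step. The replicate block was an alternative setting, with an effect for each number shared by all days. All 10 genes were named, and other pathway genes by role: up to 3 called genes of largest difference, or the most abundant where none was called, with library values of further listed genes and markers chosen after their values were seen. The members and lists were chosen with earlier results of these data known.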

Additional observations from a re-analysis of the deposited data

How the results depend on the processing

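Of the values recomputed under 24 alternatives, those named here moved, and the cause was not tested. The count of the 10 genes called lower from day 0 to day 1 was 1, TDGF1, with the replicate block, with only the days compared, and with days 3 and 4 without their number 1 libraries. Over all genes 1305, 1168 and 1013 were called lower in these settings, against 850 in the main fit. From day 1 to day 2, 4 were called higher with the replicate block, 6 with only the days compared and 5 without the number 1 libraries (1 to 3 with a library left out). Over all genes 1298, 1506 and 1065 were called higher in these settings, against 857 in the main fit. In that step 1 was called lower in these settings and by DESeq2 (0 to 1 with a library left out). It was FOXH1 with the replicate block and by DESeq2, and NODAL with only the days compared and without the number 1 libraries. Over all genes 1168 were lower with the block, 1308 with only the days compared, 610 without the number 1 libraries and 1053 by DESeq2, against 582. From day 2 to day 3, 1 was called higher by DESeq2 and with the replicate block (0 to 1 with a library left out). Over all genes 619 and 371 were called higher in these settings, against 115 in the main fit. LEFTY1 plus LEFTY2 from day 1 to day 2 gave log2 differences of 3.91 by DESeq2, 3.70 with the replicate block, 3.88 with only the days compared and 3.95 without the number 1 libraries, all called, and 3.53 to 4.41 with a library left out.

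Small differences changed sign. With the replicate block, day 3 vs day 2 gave -0.56 for NODAL and -1.11 for LEFTY1, and TDGF1 gave 0.044 for day 4 vs day 3. TDGF1 gave 0.06 with library totals alone, 0.005 with no filter and 0.007 with the CPM filter for day 4 vs day 3. For day 4 vs day 0 it gave 0.059 with library totals alone, 0.007 with no filter and 0.30 without the number 1 libraries. Without those libraries ACVR2B gave -0.065 for day 4 vs day 0, and LEFTY1 plus LEFTY2 gave 0.35 for day 3 vs day 2. With a library left out, day 3 vs day 2 ranged from -1.10 to 0.57 for NODAL, -0.19 to 1.04 for GDF3, -0.40 to 0.51 for TDGF1, -0.03 to 0.29 for ACVR2B, -0.15 to 0.22 for SMAD2, -2.37 to 0.82 for LEFTY1 and -2.40 to 0.36 for LEFTY1 plus LEFTY2. Day 4 vs day 3 ranged from -0.70 to 1.72 for NODAL, -0.39 to 0.53 for TDGF1 and -0.91 to 0.53 for CER1, and day 4 vs day 0 from -0.23 to 0.32 for TDGF1 and -0.048 to 0.46 for ACVR2B. Of the 6 genes called on day 4 vs day 0, GDF3 alone lost its call, and only where replicate 2 or 4 of day 0 or replicate 4 of day 4 was left out. In the 2 steps where same-numbered libraries deviated together, the block, fitted over all days, changed no call other than that of SMAD3. The LEFTY genes had few counts in replicates 1 and 2 of day 0, which limits the precision of their folds against that day.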
